A study of Mus musculus with 2 samples.

Results

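The lymphocytes of mouse pancreatic islets, T cells and natural killer (NK) cells, were 110 of the 2086 sorted immune cells that were kept (5.27%, 95% interval 4.35 to 6.32%). They were chosen by their RNA. A member had at least 200 genes, at most 10% mitochondrial molecules and at least 2000 RNA molecules, counted as unique molecular identifiers (UMIs). It also had under 1000 CPM (UMIs scaled to a cell or class total of 1000000) of C1qa, C1qb and C1qc, complement genes of islet macrophages, and at least 2 UMIs in all of Cd3d, Cd3e, Cd3g, Ncr1, Klrb1c and Klre1. Members with at least 2 UMIs of Ncr1, Klrb1c and Klre1 were called NK-type (42 cells), and the other 68 were called T-type. Cells with 1000 CPM or more of the complement genes, called macrophages here, numbered 1793.

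All cells came from wild-type C57BL/6J male mice, whose age the labels do not give, with no treatment named. Islets of 6 to 8 animals were pooled, and live cells positive for CD45 and negative for Epcam were sorted. RNA and 2 surface proteins, CD9 and CD206, were read from the same 2237 barcodes. Because the animals were pooled into 1 sample, there was no replicate, no test was possible, and every interval below is a 95% interval that covers counting error only. The sort and the pooling set which cells appear, so that shares describe the sorted suspension.

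T cells recognise peptide held by MHC molecules through the T cell receptor, whose chains signal through the CD3 proteins, and CD8 and CD4 assist recognition of MHC class I and class II. NK cells carry no rearranged antigen receptor. They balance inhibitory and activating receptors, many of them lectin-like products of the Klr genes, and kill with perforin and granzymes. In islets both kinds of lymphocyte are best known from autoimmune diabetes, and the animals sampled here were wild type.

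The values that chose the cells are a description and not a finding. The sum of Cd3d, Cd3e and Cd3g had a median of 0 UMIs in NK-type cells (0 to 49) and 14 UMIs in T-type cells (2 to 66). The sum of the NK genes had a median of 8 UMIs in NK-type cells (2 to 25) and was 0 or 1 in T-type cells. At the edges of the rule, 5 members had exactly 2 marker UMIs, 12 cells low in complement had exactly 1 and were left out, and 98 members had 5 or more. No member lay between 500 and 1000 CPM of the complement genes, 4 NK-type cells had exactly 2 UMIs of the NK genes, and 2 T-type cells had 1. Among the markers given with the label, Trbc2 (a constant segment of the receptor beta chain) stood at 292 CPM in NK-type and 827 CPM in T-type cells, Icos at 69.7 and 449 CPM, and Gzmb at 531 and 59.1 CPM. All 68 T-type cells held a UMI of Trac, Trbc1 or Trbc2, the constant segments of the receptor chains. Trac itself was detected in 58 of the 68, and Trbc1 was also found in NK-type cells without Cd3, as given below.

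**Figure D1:**
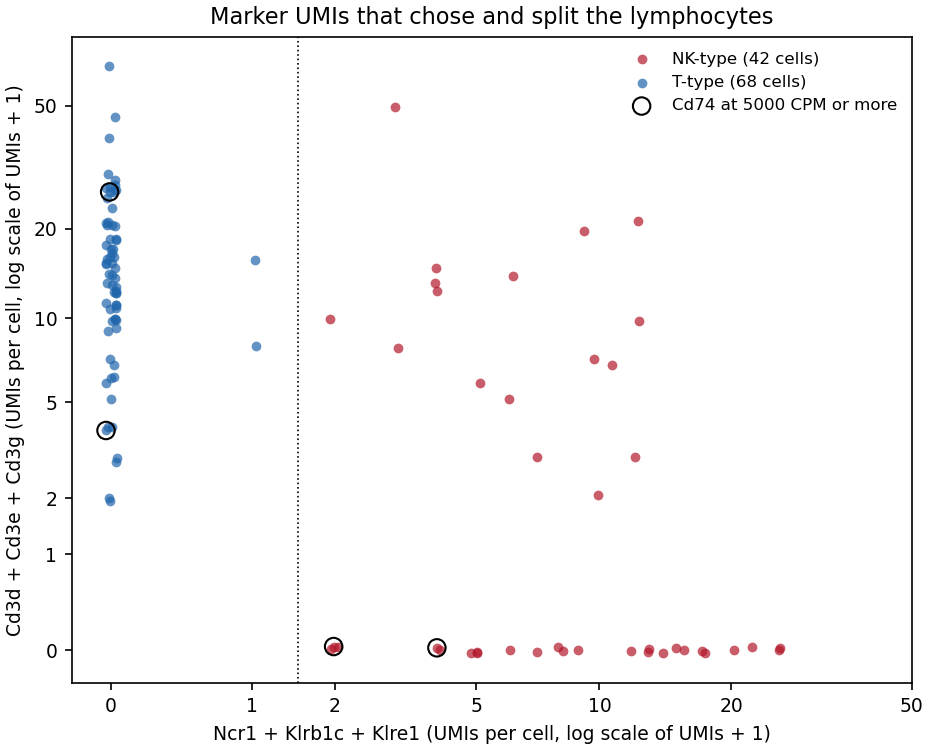
Each point is 1 of the 110 lymphocytes, placed by its UMIs of the NK genes and of the Cd3 genes on log scales, with small random offsets so that points do not hide each other; the dotted line marks the division into NK-type (right) and T-type (left). NK-type cells fall into 25 without Cd3 and 17 with at least 2 Cd3 UMIs, and the 4 circled cells are those with Cd74 at 5000 CPM or more.

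By their medians, depth and foreign RNA differed little between NK-type and T-type cells. Median RNA UMIs per cell were 9977 in NK-type and 8974 in T-type cells, both below the 20671 of macrophages. The 12 listed macrophage genes summed to a median of 191 CPM per NK-type cell (0 to 1210 CPM) and 222 CPM per T-type cell (0 to 6675 CPM), against 18120 CPM per macrophage. Mertk, a receptor for dying cells, was at 0 in NK-type and T-type cells. The 9 endocrine hormone and granule genes had medians of 999 CPM in NK-type and 1007 CPM in T-type cells, against 1017 CPM in macrophages. The 8 B cell genes had a median of 0 CPM in both classes, but reached 2649 CPM in a T-type cell, against at most 248 CPM in NK-type cells. Of these 8 genes 7 were at 0 in NK-type cells, whereas T-type cells held 11 UMIs of Cd79b and 10 of Ebf1, among others. Of 7 acinar genes all were at 0 in NK-type cells, and T-type cells held 1 UMI of Cela1.

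4 members stood apart by Cd74, the invariant chain of MHC class II, which was at 6977 CPM or more in them and at 992 CPM or less in every other member. The 2 of NK-type had no Cd3 UMI, were NK-type through 4 and 2 UMIs of Klre1 alone, and held 58 and 52 UMIs of Ccr7 and 18 and 23 UMIs of Il4i1, genes of migratory dendritic cells. The CD8-type cell among them was the deepest member (35657 UMIs), held 119 UMIs of Apoe and 68 of Lyz2, and was the 1 member among the 40 highest doublet scores. The CD4-type cell held 5 UMIs of Cd79a and 10 of Ebf1, which are B cell genes. Where leaving them out moved a ratio below by more than 1.5 times or across 2-fold, the value without them is given too.

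The antibody readout was independent of the rule. The antibodies carried the following barcodes of 15 bases, whose counts are the surface protein values, shown because they were the measured oligonucleotides.
CD9: tagcagtcactccta
CD206: tcaactcggtgttgc

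Surface CD9, a tetraspanin of the cell membrane, was higher on NK-type than on T-type cells. NK-type cells had a median of 185 CD9 UMIs (lowest 17, highest 697) and T-type cells a median of 47 (lowest 10, highest 1750), so that the ranges overlapped. The quartiles were 67.75 and 322.75 in NK-type cells and 23 and 102.25 in T-type cells. The means differed 1.87-fold (1.82 to 1.93), and 2.31-fold without the 4 members high in Cd74, since the value of 1750 belonged to 1 of them. At least 100 CD9 UMIs were counted on 28 of 42 NK-type cells (66.7%) and 18 of 68 T-type cells (26.5%). B-type cells, chosen by B cell genes, had a median of 23.5 and macrophages a median of 617. CD206, the macrophage mannose receptor, had medians of 1 UMI on NK-type and 0 on T-type cells, against 9 on macrophages.

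The Cd9 transcript differed in the same direction, with 294 CPM in NK-type cells, against 67.9 CPM in T-type cells (ratio 4.33, 3.08 to 6.19), while macrophages had 216 CPM. Without the members high in Cd74 the ratio was 7.96, with 318 CPM in NK-type and 39.9 CPM in T-type cells. Cd9 was detected in 33 of 42 NK-type and 20 of 68 T-type cells. Across all 110 cells the antibody count and Cd9 per RNA UMI had a Spearman correlation of 0.49, which was 0.36 among NK-type and 0.27 among T-type cells. These cells share 1 library and its depth, and the correlation of the antibody count with total RNA UMIs was -0.17.

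Surface CD9 also varied inside both classes. NK-type cells with Cd3 had a median of 105 UMIs, those without it and low in Cd74 210. Among the T-type cells, the CD8-type had a median of 26, the CD4-type 79.5 and those with neither coreceptor 33. Of the 18 CD8-type cells 2 reached 100 UMIs, and of the 32 CD4-type cells 12 did. The Cd9 transcript stood at 99.3 CPM in CD8-type, 54.1 CPM in CD4-type and 52.6 CPM in cells with neither, and 81.8% of the CD8-type UMIs came from the CD8-type cell high in Cd74. Without the members high in Cd74 the levels were 21.5 CPM in CD8-type, 46.3 CPM in CD4-type and 52.6 CPM in cells with neither, from 4, 13 and 8 UMIs.

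**Figure D2:**
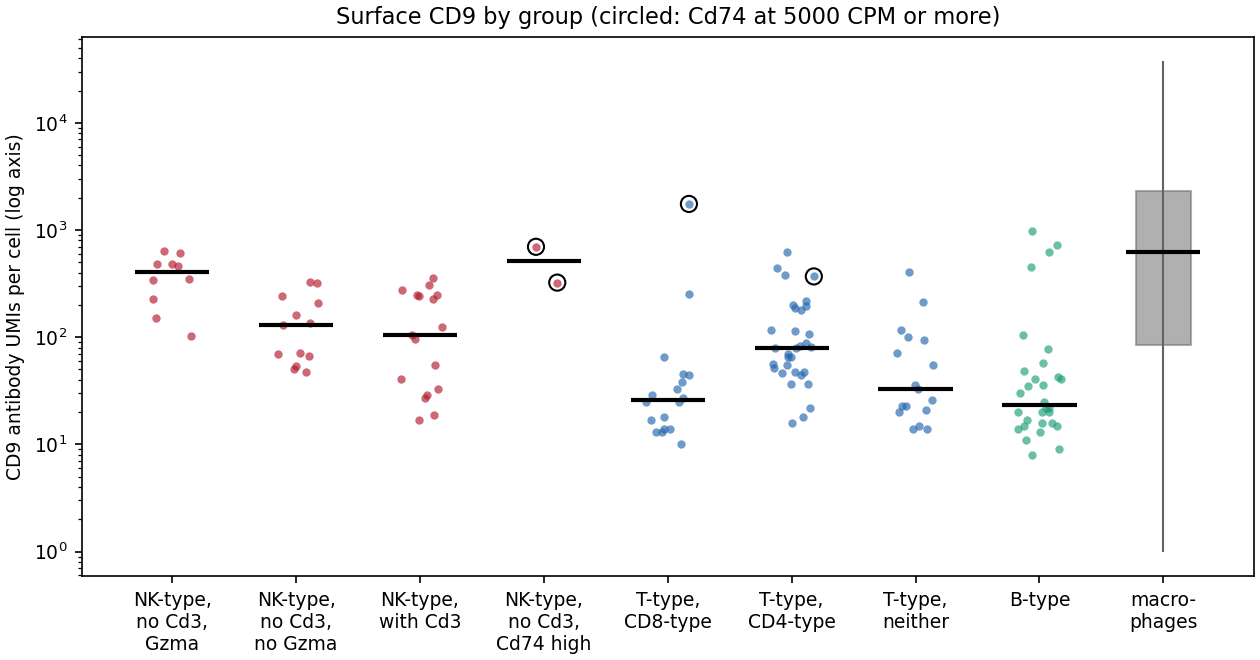
CD9 antibody UMIs per cell (log axis) for groups of lymphocytes and B-type cells, each point 1 cell and each bar the median; circles mark members with Cd74 at 5000 CPM or more, and macrophages are drawn as their lowest, quartiles, median and highest value. NK-type cells with Gzma lie between 103 and 633 UMIs, and most CD8-type cells lie under 100.

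NK-type and T-type cells were compared over 4272 genes with at least 50 UMIs in the 2 classes together, and genes at least 2-fold apart were counted. 272 genes were higher in NK-type cells (6.37% of those tested) and 244 were lower (5.71%), with a median log2 ratio of -0.04 over all genes. Both classes were cut by RNA of the same cells, so these ratios describe the classes. Near-identical families, such as the Klra, Klrb1 and Gzmc-like genes and the Trbc segments, may trade UMIs between members.

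Genes of killing were higher in NK-type cells, 10 of the 12 cytotoxic effector genes tested (16 listed), with a median log2 ratio of 2.0 and 0 lower. Gzma (ENSMUSG00000023132), granzyme A, had 579 CPM in NK-type cells, against 20.7 CPM in T-type cells (ratio 28.0, 16.4 to 52.0). It was detected in 10 of 42 NK-type cells, 4 of 68 T-type cells and 3 of 1793 macrophages, so the class level rests on a minority of NK-type cells. Gzmb (ENSMUSG00000015437), granzyme B, had 531 CPM in NK-type cells, against 59.1 CPM in T-type cells (ratio 9.0, 6.42 to 12.9), and was detected in 20 NK-type cells, 5 T-type cells and 10 macrophages. The pore-forming perforin gene Prf1 had 248 CPM in NK-type cells, against 14.8 CPM in T-type cells (ratio 16.8, 8.82 to 36.0).

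Granule and death-ligand genes were also higher in NK-type cells, by smaller ratios. Nkg7, a granule membrane protein, had 370.3 CPM in NK-type cells, against 91.5 CPM in T-type cells (ratio 4.05, 3.01 to 5.50). Fasl, the ligand of the death receptor Fas, and Ctsw, a granule protease of killer cells, had ratios of 3.72 and 3.89. Serpinb9, which inhibits granzyme B and protects the killer cell, had 706 CPM in NK-type cells, against 162 CPM in T-type cells (ratio 4.35, 3.49 to 5.44), and its relative Serpinb6b had a ratio of 3.95. Srgn, the granule proteoglycan, was at 1655 CPM in NK-type and 1473 CPM in T-type cells. Granzyme C was listed mainly in 1 cell, which held 70.7% of the 58 Gzmc UMIs of NK-type cells, and its log2 ratio turned to -0.52 when at least 3 NK UMIs were asked of an NK-type cell. Gzmk, a granzyme of some T cells, had 0 UMIs in NK-type and 27 in T-type cells, under the minimum for a ratio.

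The start regions of these granzyme genes were searched for a RUNX motif, TGTGGTT or its reverse complement, since Runx3, a RUNX factor, was among the transcription factors higher in NK-type cells. Windows run from 250 bases before to 50 after an annotated start (RefSeq, GRCm38.p6), here each gene's outermost one, the motif is in capitals, and Ncr1, a gene of the rule, is shown beside the granzymes.
Gzma, chr13:113100932-113101231, minus strand: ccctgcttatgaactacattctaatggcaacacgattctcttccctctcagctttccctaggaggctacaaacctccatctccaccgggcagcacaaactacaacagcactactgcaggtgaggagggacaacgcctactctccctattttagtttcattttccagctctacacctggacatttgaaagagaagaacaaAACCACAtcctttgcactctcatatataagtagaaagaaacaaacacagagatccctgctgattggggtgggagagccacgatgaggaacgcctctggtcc
Gzmb, chr14:56262285-56262584, minus strand: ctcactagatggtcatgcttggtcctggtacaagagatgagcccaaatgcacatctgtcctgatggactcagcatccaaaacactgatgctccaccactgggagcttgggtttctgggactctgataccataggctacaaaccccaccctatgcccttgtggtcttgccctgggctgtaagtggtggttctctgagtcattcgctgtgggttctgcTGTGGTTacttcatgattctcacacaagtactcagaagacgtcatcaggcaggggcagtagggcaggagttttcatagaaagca
Ncr1, chr7:4337465-4337764, plus strand: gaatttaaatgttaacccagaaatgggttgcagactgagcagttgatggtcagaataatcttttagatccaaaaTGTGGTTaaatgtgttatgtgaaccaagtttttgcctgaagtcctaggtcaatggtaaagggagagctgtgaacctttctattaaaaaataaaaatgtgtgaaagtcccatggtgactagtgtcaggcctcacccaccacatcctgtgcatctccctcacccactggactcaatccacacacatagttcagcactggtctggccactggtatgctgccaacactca
The motif began 51 bases before the start of Gzma, 34 before Gzmb and 176 before Ncr1. It was in a window of 7 of 10 granzyme genes (Gzma to Gzmg, of which Gzmc to Gzmg are close copies) and of 6.09% of all 27025 genes with a window. 8 motifs were searched on both strands. ETS CAGGAAG was in 5 of the 10 granzyme genes, the close copies Gzmc to Gzmg, and in 14.8% of all genes. The T-box motif GGTGTGA was in 2 (4.60% of all genes), NFAT GGAAAA in 2 (26.1%), AP-1 TGACTCA in 1 (5.95%) and the GATA motif AGATAA in 1 (12.7%). The GATA form TGATAA (10.4%) and the T-box form TCACACCT (1.48%), which overlaps GGTGTGA, were in 0. Among the 15 genes named as highest in NK-type cells 12 had a window, and NFAT was in 4 of these, RUNX, ETS and each GATA form in 2, GGTGTGA and AP-1 in 1 and TCACACCT in 0. Among the 15 lowest 11 had a window, and ETS was in 4, TGATAA in 2, AGATAA and NFAT in 1 and the other 4 motifs in 0. A match is a description of the sequence and not a binding site.

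NK receptor genes were higher in NK-type cells. Of 18 receptor genes tested (30 listed), 14 were higher and 0 lower (median log2 ratio 2.17). Klrb1b, a lectin-like receptor of the same gene complex as Klrb1c, had 147 UMIs in NK-type cells, against 0 UMIs in T-type cells (at least 72.3-fold higher). Among the Ly49 family, which binds MHC class I, Klra4 had 98 UMIs in NK-type cells, against 0 UMIs in T-type cells (at least 48.2-fold higher). Klra8 had 92 UMIs in NK-type cells and 0 UMIs in T-type cells. Klra9 had 268 CPM in NK-type cells, against 1.48 CPM in T-type cells (ratio 181, 32.0 to 7225), and Klra7 had 416 CPM in NK-type cells, against 29.5 CPM in T-type cells (ratio 14.1, 8.87 to 23.6). Klra4, Klra8, Klrb1b and Klri2, another lectin-like receptor, were thus at 0 over all 68 T-type cells, whereas Klra7 was not.

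Receptors that T cells can share differed less. Klrk1, encoding the activating receptor NKG2D, had 767 CPM in NK-type cells, against 183 CPM in T-type cells (ratio 4.19, 3.40 to 5.18). Klrd1, encoding CD94, had 335 CPM in NK-type cells, against 102 CPM in T-type cells (ratio 3.29, 2.46 to 4.44), and its partner Klrc1, encoding NKG2A, had 309 CPM in NK-type cells, against 103 CPM in T-type cells (ratio 2.99, 2.23 to 4.04). Il2rb, the beta chain of the IL-2 and IL-15 receptors, had 810.2 CPM in NK-type cells, against 242 CPM in T-type cells (ratio 3.35, 2.78 to 4.05). Of 8 adaptor genes tested, 2 were higher: Tyrobp, encoding the adaptor DAP12, had 586 CPM in NK-type cells, against 45.8 CPM in T-type cells (ratio 12.8, 8.81 to 19.2), and Fcer1g, an Fc receptor chain, had 762 CPM in NK-type cells, against 108 CPM in T-type cells (ratio 7.07, 5.48 to 9.23). Without the members high in Cd74 the ratios were 26.7 for Tyrobp and 12.7 for Fcer1g. Macrophages also had both adaptors, at 1289 and 1535 CPM.

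Transcription factors divided in both directions, 5 higher and 4 lower in NK-type cells of 23 tested. Eomes (ENSMUSG00000032446), a T-box factor of NK cells, had 224 CPM in NK-type cells, against 10.3 CPM in T-type cells (ratio 21.7, 10.2 to 55.3). Runx3 had 649 CPM in NK-type cells, against 180.1 CPM in T-type cells (ratio 3.60, 2.91 to 4.49), and Zeb2, a factor of late NK maturation, had 305 CPM in NK-type cells, against 84.2 CPM in T-type cells (ratio 3.62, 2.64 to 5.02). Bhlhe40, a repressor induced by activation, had a ratio of 6.35. Tbx21, encoding T-bet, had 74.1 CPM in NK-type and 38.4 CPM in T-type cells, a ratio of 1.93 that was 2.07 without the members high in Cd74. Bcl11b, which maintains the T cell programme, had 21.8 CPM in NK-type cells, against 314 CPM in T-type cells (ratio 0.0693, 0.0327 to 0.130). Lef1, of naive and memory T cells, had 169.9 CPM in NK-type cells, against 440.0 CPM in T-type cells (ratio 0.386, 0.297 to 0.497). Tox, a factor of T cell development and exhaustion, had 339.8 CPM in NK-type cells, against 774 CPM in T-type cells (ratio 0.439, 0.365 to 0.526), but its log2 ratio was -0.62 when 1 NK UMI was enough to call a cell NK-type. Of the 524 Tox UMIs of T-type cells, 267 came from the 9 cells with Foxp3 described below.

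Genes outside these families were also among the furthest apart. Styk1, a receptor-like kinase, had 107 UMIs in NK-type cells, against 0 UMIs in T-type cells (at least 52.6-fold higher). Vegfa, encoding an angiogenic growth factor, had 216 CPM in NK-type cells, against 13.3 CPM in T-type cells (ratio 16.2, 8.21 to 36.5). Without the members high in Cd74 the ratio of Vegfa was 75.2, against 2 UMIs in T-type cells. Sema6d, a semaphorin, had 139 CPM in NK-type cells, against 2.95 CPM in T-type cells (ratio 47.2, 12.5 to 398). Zbtb46, a factor best known from conventional dendritic cells, had 137 CPM in NK-type cells, against 5.91 CPM in T-type cells (ratio 23.2, 8.64 to 87.9), and stood at 58.6 CPM in NK-type cells with Cd3 and 169 CPM in those without Cd3 and low in Cd74. Anxa2, a membrane-binding annexin, had 721 CPM in NK-type cells, against 111 CPM in T-type cells (ratio 6.51, 5.05 to 8.48), the 1 gene higher among 17 of actin and adhesion.

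Genes of T cell receptor signalling were lower in NK-type cells for 11 of 23 tested and higher for 1, with a median log2 ratio of -0.96, leaving out Cd3d, Cd3e and Cd3g, which the rule used. Themis, a signalling protein of T cell development, had 15.2 CPM in NK-type cells, against 261 CPM in T-type cells (ratio 0.0583, 0.0231 to 0.123). Cd5, an inhibitory surface receptor of T cells, had 13.1 CPM in NK-type cells, against 219 CPM in T-type cells (ratio 0.0598, 0.0216 to 0.133), and its relative Cd6 had a ratio of 0.0686. Lat, the scaffold that links the receptor to downstream kinases, had 15.2 CPM in NK-type cells, against 137 CPM in T-type cells (ratio 0.111, 0.0434 to 0.238). Other members were less apart: the kinase gene Lck had 168 CPM in NK-type and 233 CPM in T-type cells, and the Cd247 chain, which NK receptors also use, 235 and 422 CPM. Txk, a kinase of T and NK cells, was the member that was higher in NK-type cells, with 473 CPM in NK-type cells, against 193 CPM in T-type cells (ratio 2.44, 1.96 to 3.06).

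Costimulatory and checkpoint receptors were lower in NK-type cells for 7 of 13 tested and higher for 1. Tnfrsf4, encoding OX40, had 0 UMIs in NK-type cells, against 202 UMIs in T-type cells (a ratio of at most 0.0219). Icos, a marker given with the label, had 69.7 CPM in NK-type cells, against 449 CPM in T-type cells (ratio 0.155, 0.104 to 0.224). Ctla4, an inhibitory receptor, had 26.1 CPM in NK-type cells, against 381 CPM in T-type cells (ratio 0.0686, 0.0350 to 0.122), and Pdcd1, encoding PD-1, had 30.5 CPM in NK-type cells, against 211 CPM in T-type cells (ratio 0.144, 0.0770 to 0.250), with 71.4% of the NK-type UMIs of Pdcd1 in 1 cell. Cd28, the main costimulatory receptor, had 84.9 CPM in NK-type cells, against 288 CPM in T-type cells (ratio 0.295, 0.204 to 0.418). Of the other genes named as lowest, Ly6a, encoding Sca-1, had 1 UMI in NK-type and 137 UMIs in T-type cells, Slamf1 2 and 72, and the ganglioside synthase gene St8sia1 1 and 94.

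Genes of positioning differed in both directions. S1pr1, the receptor that guides lymphocytes out of tissue, had 98.0 CPM in NK-type cells, against 505 CPM in T-type cells (ratio 0.194, 0.139 to 0.265). Cd69, which opposes S1pr1 at the cell surface, had 322 CPM in NK-type cells, against 134 CPM in T-type cells (ratio 2.40, 1.84 to 3.15), and Rgs1, a brake on chemokine receptor signals, had a ratio of 2.28, which was 1.96 without the members high in Cd74. Within NK-type cells Cd69 stood at 434 CPM with Cd3 and 246 CPM without. Itga1, a collagen-binding integrin chain of tissue residents, had 95.8 CPM in NK-type cells, against 13.3 CPM in T-type cells (ratio 7.21, 3.47 to 16.8). Itga2, another collagen-binding chain, and Itga4, which binds endothelial VCAM-1, had ratios of 6.27 and 2.22. Of the chemokine receptors, Cxcr4, the receptor of Cxcl12, had 403 CPM in NK-type cells, against 79.7 CPM in T-type cells (ratio 5.05, 3.71 to 6.98), and Ccr2 had a ratio of 2.18. Cxcr6, the receptor of Cxcl16, had 84.9 CPM in NK-type cells, against 252 CPM in T-type cells (ratio 0.336, 0.231 to 0.479), and Cxcr3, the receptor of interferon-induced chemokines, had a ratio of 0.328.

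Among chemokines, Ccl5 was detected in every NK-type cell (42 of 42) and in 32 of 68 T-type cells, and had 3260.4 CPM in NK-type cells, against 1509 CPM in T-type cells (ratio 2.16, 1.99 to 2.34). Macrophages had 1079 CPM of it, and the log2 ratio was 0.94 without the NK-type cells with Cd3. Xcl1, which attracts cross-presenting dendritic cells, had 388 CPM in NK-type cells, against 25.1 CPM in T-type cells (ratio 15.4, 9.38 to 27.1), and was detected in 28 NK-type cells, 6 T-type cells and 12 macrophages. With each cell thinned to 2000 UMIs, the expected shares of cells with Xcl1 were 36.0% of NK-type, 3.65% of T-type and 0.112% of macrophages. Ccl4 had 289.7 CPM in NK-type cells, against 65 CPM in T-type cells (ratio 4.46, 3.15 to 6.42), with 75.2% of its NK-type UMIs in 1 cell, and its log2 ratio was 0.07 without the members high in Cd74.

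Few cytokine genes had enough UMIs. Ifng, encoding interferon gamma, had 71.9 CPM in NK-type cells, against 31.0 CPM in T-type cells (ratio 2.32, 1.30 to 4.22), and 1 UMI over all macrophages. Tgfb1, encoding a regulatory cytokine, had 509.6 CPM in NK-type cells, against 115 CPM in T-type cells (ratio 4.43, 3.41 to 5.79). Ltb, encoding lymphotoxin beta, had 115 CPM in NK-type cells, against 272 CPM in T-type cells (ratio 0.425, 0.307 to 0.580). Of the cytokine receptors, Il12rb2 had 451 CPM in NK-type cells, against 179 CPM in T-type cells (ratio 2.52, 2.01 to 3.19), while Il7r (407 CPM in NK-type and 751 CPM in T-type cells) and Il18r1 (281 and 512 CPM) were not 2-fold apart. Of the 187 Il7r UMIs of NK-type cells, 136 came from those with Cd3 and 21 from those without it and low in Cd74. Without the NK-type cells with Cd3, Il7r was at least 2-fold lower in NK-type than in T-type cells. In the list of ligands that macrophages can read, 6 of 9 tested were higher in NK-type cells and 1 was lower, against 6.37% and 5.71% of all genes. Ccl4 was 1 of the 6, and without the members high in Cd74 5 of 9 were higher.

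Of the 18 immediate-early or heat-shock genes tested, which cells switch on soon after a stimulus, 7 were higher and 3 lower, against 6.37% and 5.71% of all genes. The phosphatase gene Dusp2 had 466 CPM in NK-type cells, against 112 CPM in T-type cells (ratio 4.15, 3.18 to 5.47). Nr4a3, an orphan nuclear receptor, had 161 CPM in NK-type cells, against 54.6 CPM in T-type cells (ratio 2.95, 1.96 to 4.50). Dusp1 had a ratio of 2.26, and Fos, a subunit of AP-1, one of 2.62. Jun, the partner of Fos, had a ratio of 2.35, with 79.1% of its NK-type UMIs in 1 cell, and of 5.19 without the members high in Cd74. Nr4a1, Hspa1a and Hspa1b were the 3 lower. When the members high in Cd74 were left out, 7 of 14 tested were higher and 1, Nr4a1, was lower. The 59 Nr4a1 UMIs of T-type cells lay in CD8-type cells (24), CD4-type cells (3) and cells with neither coreceptor (32). The 9 T-type cells with Foxp3, described below, held 30 of the 59. Only 1 of these 9 had neither coreceptor, so most of the 30 lay in 1 cell.

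MHC class I genes had 0 higher and 0 lower of 11. All 4 MHC class II genes tested were higher, with a median log2 ratio of 1.42 that became -0.16 without the members high in Cd74, when 0 of 4 were higher. Interferon-stimulated genes had 5 higher and 2 lower of 19, against 6.37% and 5.71% of all genes. Without the members high in Cd74, 4 were higher and 2 lower. Rsad2, an antiviral enzyme, was among the 5, at a ratio of 5.78, or 2.69 without the members high in Cd74, and 56.0% of its NK-type UMIs came from 1 cell. Against the same shares of all genes, glycolysis had 0 higher and 1 lower of 9, and the cell cycle 0 and 1 of 8. Without the members high in Cd74 the cell cycle had 0 higher and 2 lower of 8.

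**Figure D3:**
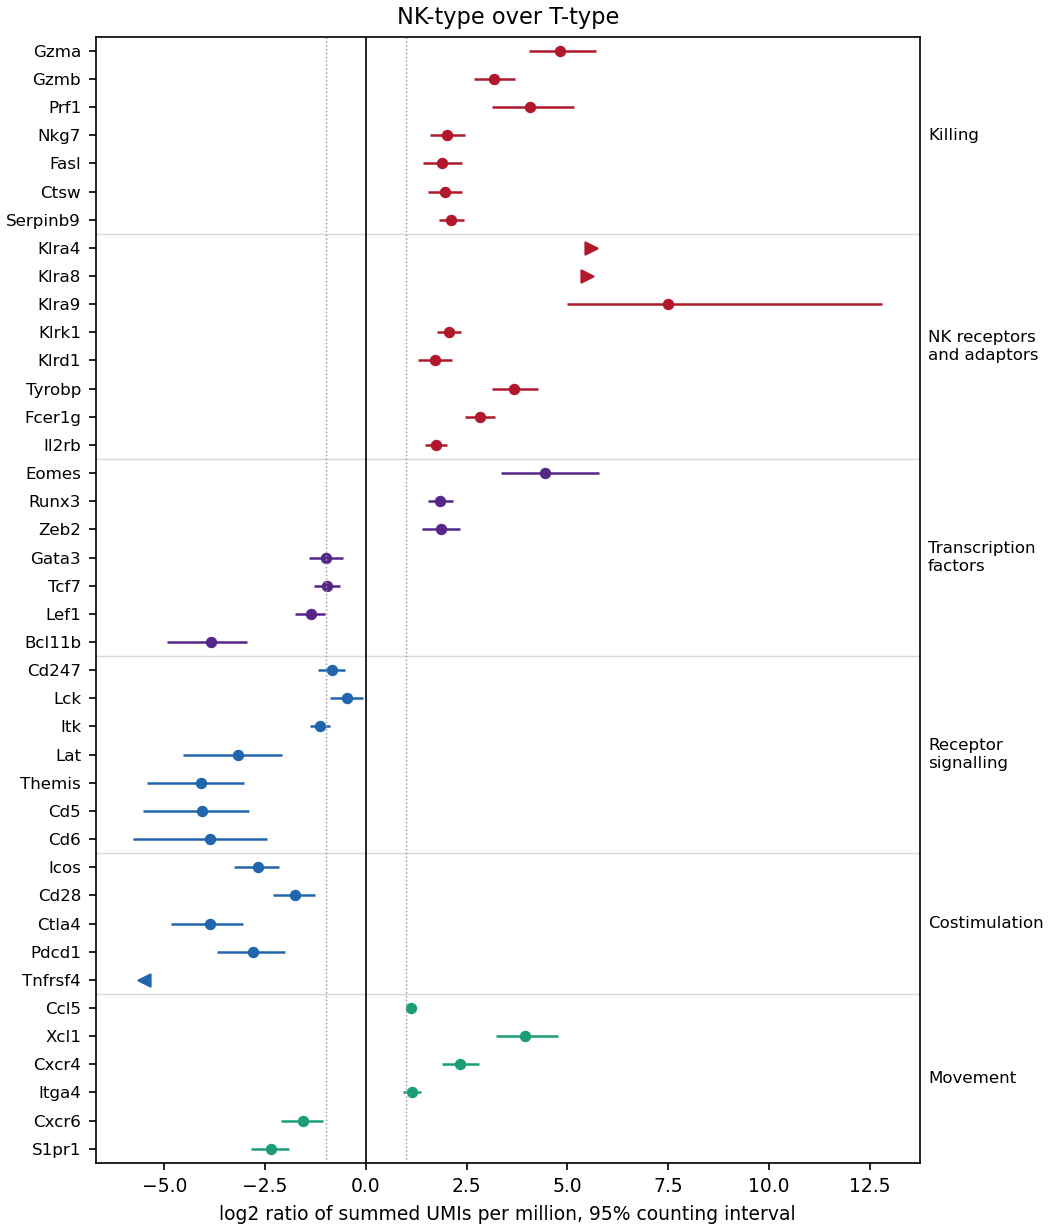
Log2 ratios of NK-type over T-type levels (in CPM) for named genes, grouped by role, with 95% counting intervals; arrowheads are bounds for genes at 0 UMIs in 1 class and dotted lines mark 2-fold. Killing and NK receptor genes lie to the right, Gzma at 28.0-fold, and T cell signalling genes to the left, Bcl11b at a ratio of 0.0693.

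NK-type cells were not alike. 17 of 42 (40.5%, 25.6 to 56.7%) also held at least 2 Cd3 UMIs, and 23 held none and were low in Cd74. Trac was detected in 11 of the 17 and in 0 of the 23, and Trdc, of the gamma delta receptor, in 4 of the 17, 2 of which also held Trac. Of the 17, 4 held neither Trac nor Trdc, and 2 held Cd4 or Cd8. Trbc1 was detected in 19 of the 23 cells without Cd3, so Trbc1 was not limited to cells with Cd3. Neither was Trdc, with 17 UMIs over the 17 cells with Cd3 and 11 UMIs over the 23 without.

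Over 1686 genes tested, 61 were higher (3.62%) and 76 lower (4.51%) in NK-type cells with Cd3 than in those without, and 1 cell of the 17 had 31424 RNA UMIs. Cytotoxic genes were lower in the cells with Cd3 for 5 of 11 tested and higher for 0. Gzma had 0 UMIs in NK-type cells with Cd3, against 266 UMIs in those without (a ratio of at most 0.0114), and Prf1 had 83.0 CPM in NK-type cells with Cd3, against 468 CPM in those without (ratio 0.177, 0.0992 to 0.299). Eomes had 53.7 CPM in NK-type cells with Cd3, against 444 CPM in those without (ratio 0.121, 0.0584 to 0.227), and was detected in 2 of 17 cells with Cd3 and 21 of 23 without. Gzmb had 293 CPM in NK-type cells with Cd3, against 888 CPM in those without (ratio 0.330, 0.242 to 0.444). Klra4 had 0 UMIs in NK-type cells with Cd3, against 98 UMIs in those without (a ratio of at most 0.0310), but another Ly49 gene, Klra1, had 254 CPM in NK-type cells with Cd3, against 33.8 CPM in those without (ratio 7.52, 3.40 to 19.6).

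Il7r, Ikzf2, Tcf7 and Lef1 were higher in the NK-type cells with Cd3. Il7r, the receptor of the survival cytokine IL-7, had 664 CPM in NK-type cells with Cd3, against 101 CPM in those without (ratio 6.55, 4.12 to 10.9). Ikzf2, encoding Helios, had 2197 CPM in NK-type cells with Cd3, against 671 CPM in those without (ratio 3.28, 2.70 to 3.99), and the log2 ratio of Ikzf2 between NK-type and T-type cells was 1.42 with these cells and 0.21 without them. Tcf7 and Lef1, factors of naive and memory T cells, had ratios of 2.21 and 3.63. Ccl5 was at 3705 CPM in the cells with Cd3 and 3416 CPM in those without.

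The 23 NK-type cells without Cd3 held Gzma in 10 and not in 13, a division made after its values were seen. The 10 with Gzma had median RNA UMIs of 6812.5 and the 13 without had 11341, so the cells without Gzma were the deeper ones by that median. Surface CD9 had a median of 407 UMIs (103 to 633) in cells with Gzma and 131 UMIs (47 to 328) in cells without. Gzmb stood at 1970.5 CPM with Gzma and 394 CPM without, Prf1 at 1031 and 211 CPM, and Klra8 at 816 and 169 CPM. Itgam, the CD11b integrin of mature NK cells, stood at 369 CPM with Gzma and 21.1 CPM without, Klf2 at 616 and 21.1 CPM, and S1pr1 at 200.1 and 7.03 CPM. The opposite order held for Emb (123 CPM with Gzma and 2137 CPM without), Xcl1 (123 and 829 CPM) and Kit (108 and 330.3 CPM). These sums rest on 10 and 13 cells and are descriptions.

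**Figure D4:**
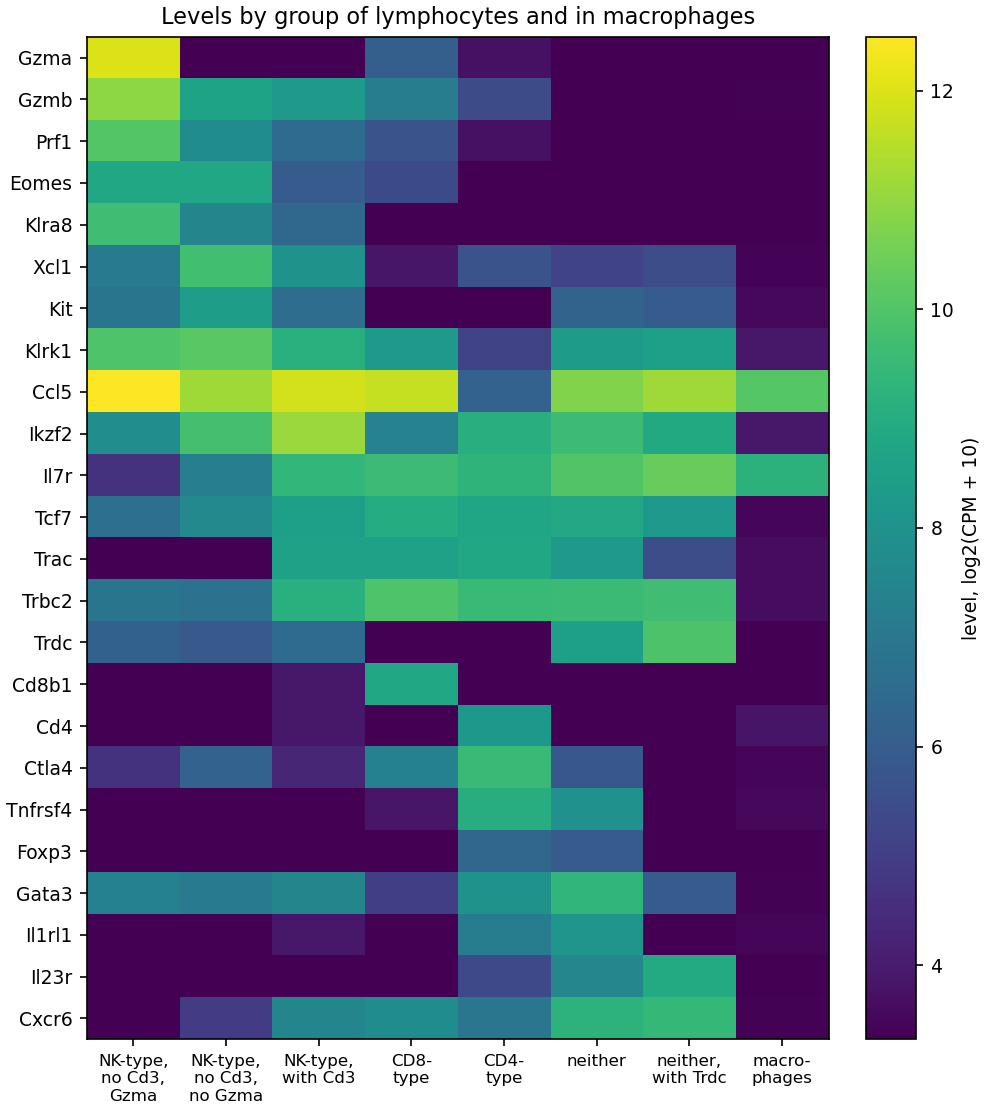
Levels, as log2 of CPM plus 10, of 24 genes in 7 groups of lymphocytes and in macrophages. Gzma, Prf1 and Klra8 are highest in the 10 NK-type cells with Gzma, Xcl1 in the 13 without it, and Ikzf2 in NK-type cells with Cd3; cells with Trdc are also counted among the T-type cells with neither coreceptor.

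The 68 T-type cells held 18 CD8-type cells (26.5%, 16.5 to 38.6%), with a UMI of Cd8a or Cd8b1 and none of Cd4, and 32 CD4-type cells (47.1%, 34.8 to 59.6%), with the reverse. 1 cell held both and 17 held neither (25%). Median RNA UMIs were 11366 in CD8-type, 8490.5 in CD4-type and 8163 in the cells with neither. Of the 68, 32 held a UMI of a beta-chain V segment (17 different of 35 in the feature table), the most frequent, Trbv12-2, in 7. An alpha-chain V segment was detected in 21 (18 different of 128), the most frequent, Trav17, in 3.

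Over 2122 genes tested, 103 were higher (4.85%) and 166 lower (7.82%) in CD8-type than in CD4-type cells, and Cd8a, Cd8b1 and Cd4 made the division. Outside the division, Ccl5 was furthest apart among the genes higher in CD8-type cells, with 3327 CPM in CD8-type cells, against 64.2 CPM in CD4-type cells (ratio 51.8, 32.9 to 86.6), detected in 17 of 18 CD8-type and 6 of 32 CD4-type cells. Ly6c2, a marker of memory and effector CD8 T cells, had 244 CPM in CD8-type cells, against 13.5 CPM in CD4-type cells (ratio 18, 6.65 to 68.6). NK receptor genes were higher in CD8-type cells for 3 of 4 tested, or 2 of 3 without the members high in Cd74. Klrk1 had 298 CPM in CD8-type cells, against 27.0 CPM in CD4-type cells (ratio 11.0, 5.28 to 26.6). Klrc1 had 61 UMIs in CD8-type cells, against 0 UMIs in CD4-type cells (at least 27.2-fold higher). Nkg7 and Il2rb had ratios of 6.41 and 2.47, and Myo1f, a myosin of leukocytes, had 275 CPM in CD8-type cells, against 37.2 CPM in CD4-type cells (ratio 7.41, 3.86 to 15.6).

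Costimulatory receptors were lower in CD8-type cells for 6 of 11 tested and higher for 0. Tnfrsf4 had 4.51 CPM in CD8-type cells, against 517 CPM in CD4-type cells (ratio 0.00873, 0.000220 to 0.0494). Tnfrsf18, encoding GITR, had 144 CPM in CD8-type cells, against 389 CPM in CD4-type cells (ratio 0.372, 0.243 to 0.554), and Tnfrsf9, encoding 4-1BB, had a ratio of 0.290. Ctla4 had 153 CPM in CD8-type cells, against 709.6 CPM in CD4-type cells (ratio 0.216, 0.146 to 0.312), with 50% of the CD8-type and 35.2% of the CD4-type UMIs in 1 cell each. Hif1a, the oxygen-sensing factor, had 284 CPM in CD8-type cells, against 1115 CPM in CD4-type cells (ratio 0.255, 0.192 to 0.335). Tox had a ratio of 0.273, and Gata3, the factor of type 2 helper cells, had 22.6 CPM in CD8-type cells, against 247 CPM in CD4-type cells (ratio 0.0915, 0.0288 to 0.223). These ratios rest in part on few cells. The 9 T-type cells with Foxp3 described below, 7 of them CD4-type, held 156 Ctla4, 138 Tnfrsf9, 87 Tnfrsf4, 43 Tnfrsf18, 267 Tox and 33 Gata3 UMIs. All CD4-type cells together held 210, 175, 153, 115, 338 and 73. The Foxp3 sums are not parts of these, since they include 1 cell with Cd4 and Cd8 and 1 with neither. Of the 33 Gata3 UMIs, 8 lay in the cell with Cd4 and Cd8. Of the 73 Gata3 UMIs, 23 came from 1 CD4-type cell high in Il5. Crem, a factor induced by cyclic AMP, and Rgs2, a regulator of G protein signals, had ratios of 0.213 and 0.223.

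The CD8-type cell high in Cd74 supplied several genes of CD8-type cells. It held 100% of the CD8-type UMIs of Lyz2, 91.4% of Cd74 and 87.9% of Hmox1, whose ratios between CD8-type and CD4-type cells therefore describe that cell. Likewise, 95.6% of the Hspa1a UMIs and 97.7% of the Cxcl2 UMIs of CD8-type cells came from 1 cell each. Without the members high in Cd74, 71 genes were higher and 139 lower.

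Smaller groups stood out among the T-type cells. Foxp3, the factor of regulatory T cells, was detected in 9 of 68 (13.2%, 6.23 to 23.6%), at 1 to 8 UMIs, and in 0 of 42 NK-type cells and 1 of 1793 macrophages. Of the 9, 7 were CD4-type, 1 held Cd4 and Cd8, and 1 held neither. Ctla4 ranged from 2 to 74 UMIs in them and Ikzf2 from 0 to 35. They included the CD4-type cell that held B cell genes.

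Trdc was detected in 6 T-type cells (8.82%, 3.31 to 18.2%), at 3 to 16 UMIs, and none of the 6 held Cd4 or Cd8. Trac was detected in 1 of them. 3 of the 6 held Il23r, the IL-23 receptor of type 17 lymphocytes, at 8, 10 and 9 UMIs, with Zbtb16 at 1, 3 and 6, Cxcr6 at 8, 18 and 9, and 0 UMIs of Ccl5. The other 3 held 87, 7 and 38 UMIs of Ccl5 and no Il23r. Il23r was detected in 0 of 42 NK-type cells and 1 of 1793 macrophages.

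3 T-type cells held 42, 144 and 53 UMIs of Il5, the eosinophil cytokine, and all 239 Il5 UMIs of T-type cells came from them, against 0 in NK-type cells. They held 53, 32 and 23 UMIs of Gata3, 14, 18 and 15 of Il1rl1 (the IL-33 receptor) and 21, 25 and 25 of Rora, which are genes of group 2 innate lymphoid cells and type 2 helper T cells. Cd3e was at 0 in all 3, Cd3g at 3, 2 and 2, and Trac at 0, 0 and 1, so that they met the rule through few Cd3 UMIs. Trbc1 was at 7, 3 and 10 and Trbc2 at 0, 1 and 3. The second cell held 4 UMIs of Tcrg-C1, a gamma-chain constant segment, and the third held 5 of Cd4 and 4 of Cd3d. Calca, encoding the neuropeptide CGRP, was at 49, 188 and 0 UMIs, and the nuclear receptor gene Pparg at 18, 10 and 56, both named after their values were seen. Their T-type label rests on Cd3g or Cd3d alone. Proliferation genes were rare: Mki67 reached 5 UMIs in 3 lymphocytes and Top2a in 3, with 2 cells in both.

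Lymphocytes as a whole were set against the 1793 macrophages over 11574 genes. 3860 genes were higher (33.4%) and 1859 lower (16.1%), with a median log2 ratio of 0.51. Scaling to the median gene shifted every log2 ratio by 0.50 and turned the counts to 2264 higher and 2673 lower, so ratios are to be read against that shift. Cells were assigned by RNA of the same libraries, so these ratios describe the classes, and the macrophage RNA counted in lymphocytes, given above, was not subtracted. The highest genes were those of the classes themselves: Eomes had 110 UMIs in lymphocytes, against 0 UMIs in macrophages (at least 1229-fold higher). Gzma had 280 UMIs in lymphocytes and 3 in macrophages, and Icos had 296 CPM in lymphocytes, against 0.499 CPM in macrophages (ratio 593, 374 to 997). Of the T cell receptor list, 22 of 23 genes other than Cd3d, Cd3e and Cd3g were higher, and of the cytotoxic list 11 of 14.

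Antioxidant genes, which the series title concerns in macrophages, were low in lymphocytes. Of 18 targets of NRF2, the factor that switches on antioxidant genes, 17 were lower and 0 higher, with a median log2 ratio of -2.85. Prdx1, a peroxiredoxin, had 341 CPM in lymphocytes, against 4696 CPM in macrophages (ratio 0.0727, 0.0656 to 0.0803). The haem oxygenase gene Hmox1 had 149 CPM in lymphocytes, against 3313 CPM in macrophages (ratio 0.0449, 0.0384 to 0.0522), and 1 T-type cell held 65.3% of the T-type UMIs. Its ratio was 0.0204 without the members high in Cd74. The ferritin gene Fth1 had 3519 CPM in lymphocytes, against 27742 CPM in macrophages (ratio 0.127, 0.123 to 0.131). The same direction held in each class, with 16 of 18 lower in NK-type cells and 17 of 18 lower in T-type cells than in macrophages. In those comparisons 30.9% of genes were higher and 13.9% lower in NK-type cells than in macrophages, and 33.7% higher and 15.5% lower in T-type cells. The part of macrophage RNA in the lymphocyte levels was not tested.

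Of 19 antioxidant enzymes outside the NRF2 list, 3 were higher and 6 lower, against 33.4% and 16.1% of all genes. Prdx6, a peroxiredoxin with phospholipase activity, had 423 CPM in lymphocytes, against 104 CPM in macrophages (ratio 4.09, 3.71 to 4.49). Prdx3, the mitochondrial peroxiredoxin, had 45.8 CPM in lymphocytes, against 21.5 CPM in macrophages (ratio 2.13, 1.58 to 2.82), and Txnip, which binds thioredoxin, had 73.0 CPM in lymphocytes, against 36.3 CPM in macrophages (ratio 2.01, 1.59 to 2.51), both under 2-fold after scaling to the median gene. The ratio of Txnip was 1.86 without the members high in Cd74. Gpx4, which removes lipid peroxides, was at 242 CPM in lymphocytes and 144 CPM in macrophages. Gpx1, a glutathione peroxidase, and Sod2, the mitochondrial superoxide dismutase, were lower, with ratios of 0.277 and 0.265.

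Receptors for interferon gamma differed by chain. Ifngr1, the ligand-binding chain, had 2061 CPM in lymphocytes, against 131 CPM in macrophages (ratio 15.8, 15 to 16.6), at 2313 CPM in NK-type and 1889.8 CPM in T-type cells. Ifngr2, the signalling chain, had 38.7 CPM in lymphocytes, against 202 CPM in macrophages (ratio 0.192, 0.139 to 0.258). Il2rg, the common gamma chain, had 338 CPM in lymphocytes, against 88.1 CPM in macrophages (ratio 3.84, 3.44 to 4.26), while Il7r was at 612 CPM in lymphocytes and 587 CPM in macrophages.

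Of 11 MHC class I genes, 3 were higher in lymphocytes and 0 lower, a share of higher genes below the 33.4% of all genes. H2-Q7, of the Qa-2 family, had 577 CPM in lymphocytes, against 162 CPM in macrophages (ratio 3.55, 3.27 to 3.85). H2-K1 and the peptide transporter gene Tap1 had ratios of 2.04 and 2.17, both under 2-fold after scaling to the median gene. All 7 MHC class II genes were lower. Of 15 cell cycle genes 12 were higher, against 33.4% of all genes, and Top2a, 1 of the 12, reached 5 UMIs in 3 lymphocytes. Mki67 was not among the 12. CD4-type cells held 66 of the 94 Top2a, 26 of the 27 Pclaf and 20 of the 21 Rrm2 UMIs of lymphocytes. Tubb5 (155 of 309) and Hmgb2 (257 of 644) were more spread. The chromatin protein gene Hmgb2 had 567 CPM in lymphocytes, against 141 CPM in macrophages (ratio 4.01, 3.69 to 4.35). Tmsb10, an actin-binding thymosin, had 2897 CPM in lymphocytes, against 294 CPM in macrophages (ratio 9.84, 9.46 to 10.2), and Bach2, a repressor of effector differentiation, had 1401 CPM in lymphocytes, against 182 CPM in macrophages (ratio 7.69, 7.28 to 8.12).

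**Figure D5:**
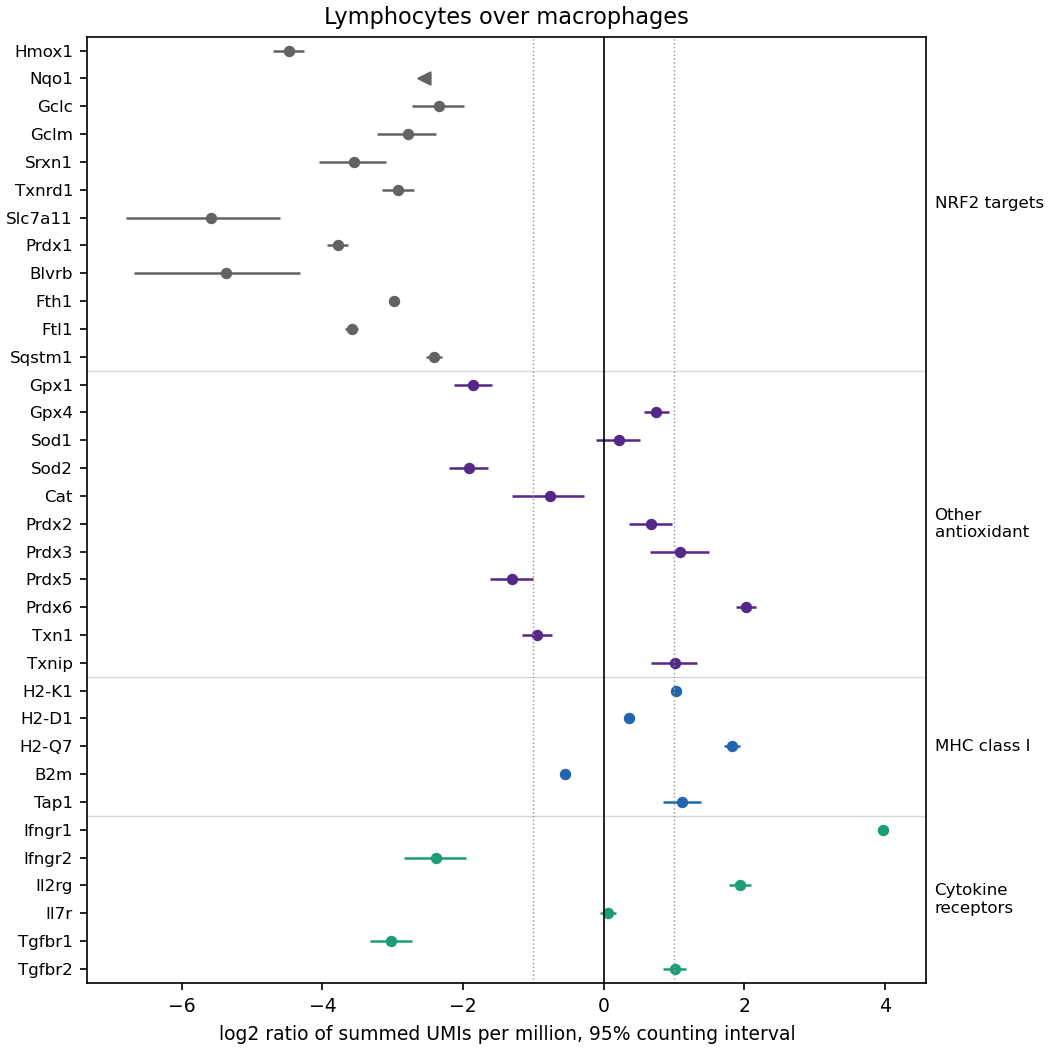
Log2 ratios of lymphocytes over macrophages (in CPM) with 95% counting intervals; the arrowhead is a bound for Nqo1, at 0 UMIs in lymphocytes, and dotted lines mark 2-fold. NRF2 targets lie to the left, Prdx1 at a ratio of 0.0727, whereas Prdx6 and Ifngr1 lie to the right, at 4.09 and 15.8; scaling to the median gene would move every point left by 0.50.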

How the data were processed

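Immune cells sorted from pooled islets gave an mRNA and an antibody library, read as 1 matrix. The deposited values are counts of UMIs per gene or antibody tag and barcode, which per the file headers the authors produced with Cell Ranger 8.0.1, and the submitters' processing notes name the build mm10. The rule by which barcodes were called cells was not given in the sources used here. The median was 19352 RNA UMIs over the 2237 barcodes. Members and gene lists were chosen with earlier results of these data known. UMIs were summed over the cells of a class, scaled to the class total (CPM) and compared as ratios, with exact conditional binomial 95% intervals. Shares of cells carry exact Clopper-Pearson intervals. A class at 0 entered the ratio at a floor of 3 counts over the class. All these cover counting error only. With 1 sample nothing was tested. Genes with under 50 UMIs over both classes were left out, and ratios of 2 or more, or of 0.5 or less, were counted. Genes were named from the lists, or as the 15 highest and 15 lowest between NK-type and T-type cells, the 15 highest over macrophages and the 8 each way between CD8-type and CD4-type cells. These were ranked by the interval bound nearest to 1 with at most 25% of the UMIs in 1 cell, leaving out mitochondrial, ribosomal, endocrine, acinar and variable-segment genes and those of the rule. Some genes that meet this rule or stand on the lists are not reported here. For 40 symbols with 2 IDs, only the ID with the larger UMI sum was used. Doublets were scored with Scrublet in scanpy 1.11.5, whose threshold marked 7 cells (0.316%), too few to rely on; none were removed, and leaving out the 40 highest scores was an alternative. Other alternatives were other marker, complement, depth, mitochondrial and gene minimums, other scalings, per-cell means, and leaving out NK-type cells with Cd3 or members high in Cd74. The ratio step was tested on simulated counts with 200 changed genes. For NK-type over T-type cells (4273 genes), the interval covered the true ratio of 95.6% of unchanged and 94.9% of changed genes. Python 3.11.15, scipy 1.17.1 and pandas 2.3.3 were used.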

Additional observations from a re-analysis of the deposited data

How the results depend on the processing

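No paired analysis was possible because the series holds 1 pooled sample and no result comes from a test. Leaving out members with Cd74 at 5000 CPM or more, and scaling lymphocytes over macrophages to the median gene, were chosen after seeing the data. The lymphocyte share lay between 5.03 and 5.85% under 9 alternatives. The NK-type share was 26.9% without NK-type cells with Cd3. Gene minimums of 20, 100 and 1 UMIs gave 546, 159 and 1427 genes higher and 586, 108 and 1433 lower in NK-type than in T-type cells; a minimum of 20 also moved the median log2 ratio of NK receptors to 2.99. Without NK-type cells with Cd3, the median of the T cell receptor list became -2.34, a shift built into that choice through its Cd3 genes, and -1.77 without those genes. Lymphocytes over macrophages gave 6187 higher genes with no minimum beyond 1 UMI and 2264 after scaling to the median gene, when 45.9% of the genes past 2-fold were higher, against 67.5% before. Minimums of 20 and 100 UMIs gave 301 and 35 genes higher and 480 and 67 lower in CD8-type than in CD4-type cells. The CD9 ratio was 3.94 by medians, 2.20 per 1000 RNA UMIs, 2.37 without the highest doublet scores, 1.93 with 1 NK UMI enough, 2.31 without NK-type cells with Cd3 and 2.31 without members high in Cd74. Among the 64 genes recomputed, reversals were Gzmc, at a log2 ratio of -0.52 when 3 NK UMIs were needed, and Cd74, at -0.29 without members high in Cd74. List medians also reversed without those members, among them MHC class II at -0.16 and chemokine and egress receptors, from 0.56 to -1.40. The NK-type over T-type ratio of Ccr7 went from 1.48 to 0.166. Between CD8-type and CD4-type cells, the medians of MHC class II (2.06 to -0.41) and NRF2 targets (1.38 to -0.04) were among those that reversed. Of 64 genes recomputed under 8 settings, 56 were past 2-fold and 6 lost that under some setting. The cause of these shifts was not tested. The number of cells, 10 to 68 in a class and 3 to 9 in the smallest groups, limits each sum.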
